A study of Mus musculus with 6 samples.

Results

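Of 41096 mouse genes in the deposited table, 45 belong to the axon guidance families and to the Wnt, BMP and TGF-beta, FGF, Notch and Hedgehog pathways and also stood in one of the study's 2 lists of changed genes. They were chosen by symbol, with letters that begin the names of semaphorins, plexins, neuropilins, Eph receptors, ephrins, Slits, Robo receptors, netrins, Unc5 receptors, Wnt ligands, Frizzled receptors and their relatives. The lists hold 2741 genes given as lower and 1137 given as higher after cell treatment, and 26 of the 45 members came from the first and 19 from the second. Since the study made its lists from this same comparison, the direction of every member was fixed by the choice, and all differences between the groups below are descriptions without a test. Only listed genes have a name in the files, so 44 of the 181 protein-coding RefSeq genes whose symbols fit the rule are covered, with Ptchd2, an older symbol, as the 45th member. The others were not analysed here.

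Left cochleae were taken for RNA sequencing from 3 mice after noise trauma (specimens 6, 8 and 10) and 3 mice after noise trauma and delivery of mesenchymal stromal cells, or MSC, grown from the Wharton's jelly of human umbilical cords (specimens 13, 18 and 20). All were female mice of a strain given as C56Bl/6 in the labels and C57BL/6 in the methods, 4 weeks old. The noise was at 16 kHz, called a narrow band in the paper's abstract and a pure tone in its methods. RNA was taken 2 days after treatment per the labels and after a longer interval per the methods, and the methods add an injection of artificial perilymph in the controls, which the labels describe as noise trauma alone. All 6 libraries came from noise-exposed mice, and the MSC were human while genes were counted on a mouse genome.

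Axon guidance molecules are cues and receptors that steer growing nerve fibres and, in adult tissue, act in blood vessels, immune cells and synapses. Wnt, BMP and TGF-beta, FGF, Notch and Hedgehog proteins are signals that pass between cells through dedicated receptors and change transcription in the receiving cell. In the inner ear these pathways are known for patterning the cochlear duct, for setting the numbers of hair cells and supporting cells, and for guiding the fibres of spiral ganglion neurons.

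Values are scaled counts, the reads of a gene multiplied by 1 factor per library. Between 9170390 and 11030863 reads fell on genes in each library, and 1 read was worth between 0.8934 and 1.1589 scaled counts. Fitted differences are log2 fold changes of MSC treated minus noise trauma, on log2(scaled count + 1), with the standard error from limma, so negative values are lower with MSC. Noise trauma specimens 6 and 8 stood apart from the other 4 libraries over all genes, specimen 8 along the first principal component (46.5% of the variance) and specimen 6 along the second (31.4%). Where leaving out 1 of the 6 libraries moves a member's difference by more than 1.5 times, the value without it is given as well. Hair cell genes were present in all 6 libraries: the scaled counts of Otof, Pou4f3 and Lhfpl5, the 3 of 8 hair cell markers with a name, summed to 291, 272 and 674 in specimens 6, 8 and 10 against 513, 637 and 488 in specimens 13, 18 and 20. In whole tissue RNA, fewer cells of a type and less RNA per cell cannot be told apart.

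Most members differed between the groups through 1 or both of specimens 6 and 8. Of the 26 members listed lower with MSC, 21 had their highest value in specimen 8 and 5 in specimen 6, among them Unc5a, Sema6c, Wnt10a and Fgf6. All 19 members listed higher had their lowest value in specimen 8 (12 members) or specimen 6 (7 members), and these specimens held the 2 lowest values in 15 of the 19. Specimen 10, also exposed to noise without MSC, lay within the range of the 3 MSC treated libraries for 16 of the 26 members listed lower and 14 of the 19 listed higher. Against the mean of the MSC treated libraries, members listed lower stood at a median log2 difference of 0.90 in specimen 6, 1.76 in specimen 8 and 0.04 in specimen 10. Members listed higher stood at -0.50, -0.60 and 0.03 in the same order. Over all 15970 genes tested, these medians were -0.04, -0.01 and 0.00. Of these genes, 28.2% were highest in specimen 8 and 21.1% in specimen 6, and 21.2% were lowest in specimen 8 and 30.1% in specimen 6. Specimens 6 and 8 also held most extremes in the study's lists as a whole. Of genes listed lower, 69.0% were highest in specimen 8 and 29.2% in specimen 6. Of genes listed higher, 60.9% were lowest in specimen 6 and 32.8% in specimen 8, the reverse of the order among the members listed higher.

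**Figure D1:**
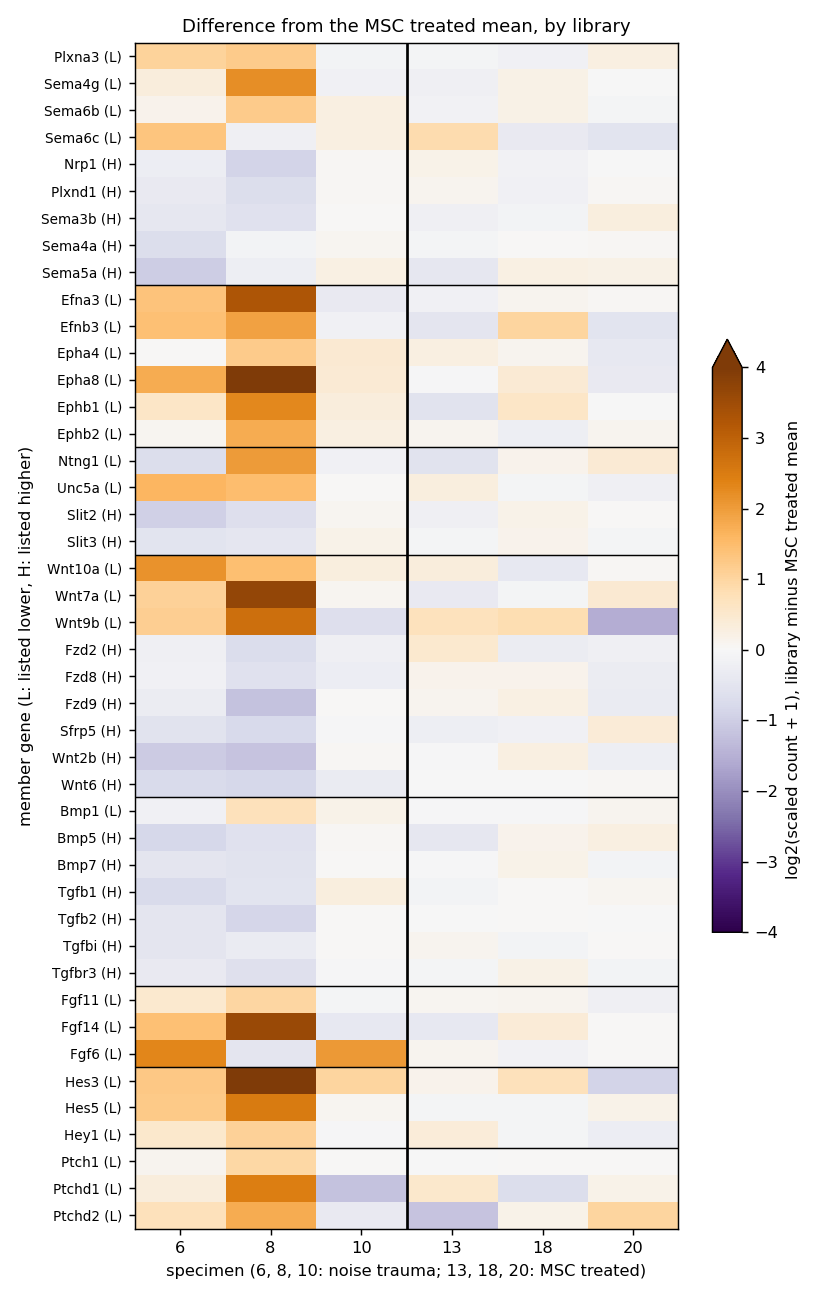
Difference of 44 of the 45 members (rows, grouped by pathway, L for listed lower and H for listed higher with MSC) from its MSC treated mean (3 libraries), on log2(scaled count + 1), in each of the 6 libraries (columns). Members listed lower are high in specimen 8 or specimen 6, members listed higher are low in both, and specimen 10 is close to the MSC treated libraries with a median of 0.04 and 0.03.

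A filter on low counts kept 40 members, all 19 listed higher and 21 of the 26 listed lower. Hes3, Hes5, Wnt9b, Wnt10a and Fgf6 were left out by it. The kept members listed lower had fitted differences between -2.18 (Epha8) and -0.24 (Bmp1), with a median of -0.71, and those listed higher had differences between 0.24 (Sema4a) and 0.72 (Wnt2b), with a median of 0.34, beside a median of 0.001 over all genes tested. Without specimen 8 the medians were -0.34 over 22 members and 0.23 over 19, without specimen 6 they were -0.73 and 0.30, and without specimen 10 they were -1.24 over 23 members and 0.57. Leaving out specimen 8 brought 27 of the 40 differences nearer to 0 by more than 1.5 times or turned their sign, and leaving out specimen 10 moved 22 farther from 0 by more than 1.5 times. Single MSC treated libraries also moved between 2 and 6 members by that much. Standard errors of single members reached 0.95. With limma, edgeR's quasi-likelihood test, DESeq2 or limma-voom, 0 members and 0% of all genes had a Benjamini-Hochberg adjusted p under 0.05. At an unadjusted p under 0.05 in limma there was 1 member, Wnt6, which was higher with MSC, beside 1.68% of all genes higher, 0.67% lower and 2.35% in either direction, and edgeR gave 6 members beside 3.25% of genes, DESeq2 8 beside 5.01% and limma-voom 1 beside 2.18%. The 3 MSC treated values lay entirely below the noise trauma values in 3 of the 45 members, among them Epha8 and Hes3, beside 2.92% of all genes tested. They lay entirely above them in Wnt6, beside 4.25%, so that 4 members were separate in either direction, beside 7.16%. The member counts include Hes3, which the filter left out, while the shares cover only genes it kept. Since the rule used this comparison, nothing is read from these counts.

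**Figure D2:**
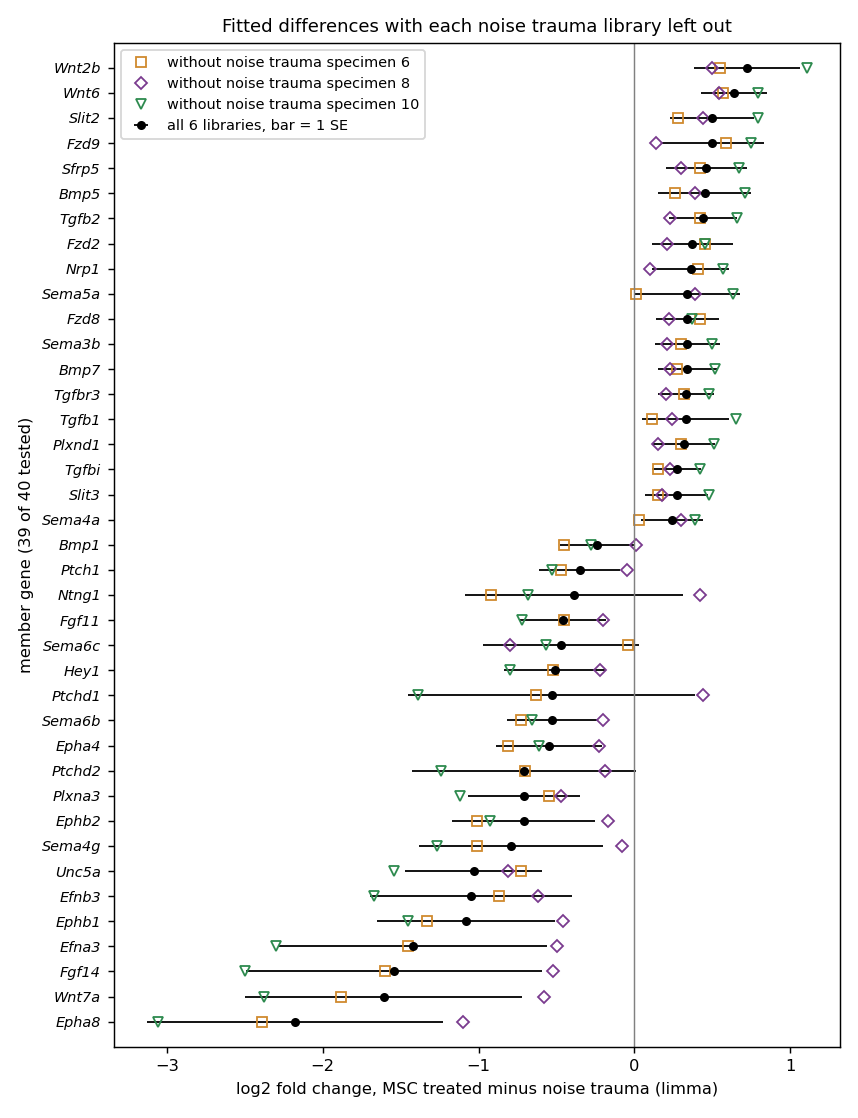
Fitted log2 fold change, MSC treated minus noise trauma, of 39 of the 40 members tested (black points, bars of 1 SE), and the same with each noise trauma library left out (open symbols). Members listed lower lie between -2.18 and -0.24 with all libraries and move to the right without specimen 8, except for Sema6c, and those listed higher lie between 0.24 and 0.72.

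The Eph and ephrin family, in which membrane-bound ephrins repel or attract cells that carry Eph receptors, had 6 members, all listed lower and all highest in specimen 8. The receptor Epha8 had scaled counts of 71.9, 439 and 27.7 in specimens 6, 8 and 10 (noise trauma) against 19.7, 27.6 and 15.5 in specimens 13, 18 and 20 (MSC treated). Specimen 8 stood far above every other library, but specimens 6 and 10 also lay above all 3 MSC treated values, so that the groups did not overlap. The fitted difference of -2.18 ± 0.95 was the largest of any member tested and was -1.10 without specimen 8 and -2.39 without specimen 6. Ephrin-A3 (Efna3), a ligand held to the membrane by a lipid anchor, was measured at 25.5, 97.5 and 7.15 in the noise trauma libraries and 8.31, 10.2 and 9.71 in the MSC treated libraries. Specimens 6 and 8 were high, and specimen 10 fell below all 3 MSC treated libraries. Its difference of -1.42 ± 0.86 was -0.50 without specimen 8.

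Efnb3, a transmembrane ephrin known as a midline barrier for corticospinal fibres, had values of 265, 377 and 87.6 (noise trauma) against 69.6, 201 and 68.9 (MSC treated). Here 1 MSC treated library, specimen 18, was also well above specimen 10, and the groups overlapped. Ephb1, a receptor for B-type ephrins, was measured at 98.5, 329.8 and 83.1 (noise trauma) against 44.7, 98 and 64.1 (MSC treated), with specimen 8 more than any other library and specimens 6 and 18 level. The fitted differences were -1.05 ± 0.65 for Efnb3 and -1.08 ± 0.57 for Ephb1, and without specimen 8 they were -0.62 and -0.46. Leaving out specimen 10 gave -1.67 for Efnb3 and -2.30 for Efna3. Epha4, a receptor known for repelling motor axons, and Ephb2, a receptor of B-type ephrins, had differences of -0.55 ± 0.34 and -0.71 ± 0.46 and in each specimen 6 lay within the MSC treated range. Specimen 8 reached 316 for Epha4 and 468 for Ephb2, and without it the differences were -0.23 and -0.17. That of Epha4 was -0.36 without MSC treated specimen 20.

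The promoter of Epha8 is shown because this gene had the largest fitted difference, with 250 bases before and 50 after the start in RefSeq on GRCm38.p6, 5′ to 3′ at chr4:136956767-136957066 on the minus strand. Capitals mark the letters CACGTG and CACGCG on either strand, which are the boxes bound by Hes and Hey repressors.
Epha8 promoter: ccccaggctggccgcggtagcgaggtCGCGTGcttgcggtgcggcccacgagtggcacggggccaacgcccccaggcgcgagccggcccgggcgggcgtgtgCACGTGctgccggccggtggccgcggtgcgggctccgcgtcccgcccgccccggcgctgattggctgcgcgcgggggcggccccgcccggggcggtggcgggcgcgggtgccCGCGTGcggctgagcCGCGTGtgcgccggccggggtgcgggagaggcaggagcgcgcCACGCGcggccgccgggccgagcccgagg
CACGTG was found at 1 place and CACGCG at 4 places of this window, without overlap between them. Among all 32851 promoter windows of the table, 7.15% held CACGTG and 9.27% held CACGCG. Of the 33 members with a window, CACGTG was in 4 (Epha8, Fgf6, Fzd9 and Tgfb2) and CACGCG in 7 (Epha8, Efna3, Fzd9, Nrp1, Ptch1, Sema5a and Wnt2b). This is a match of letters and not evidence of binding, and the genes holding it came from both lists.

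**Figure D3:**
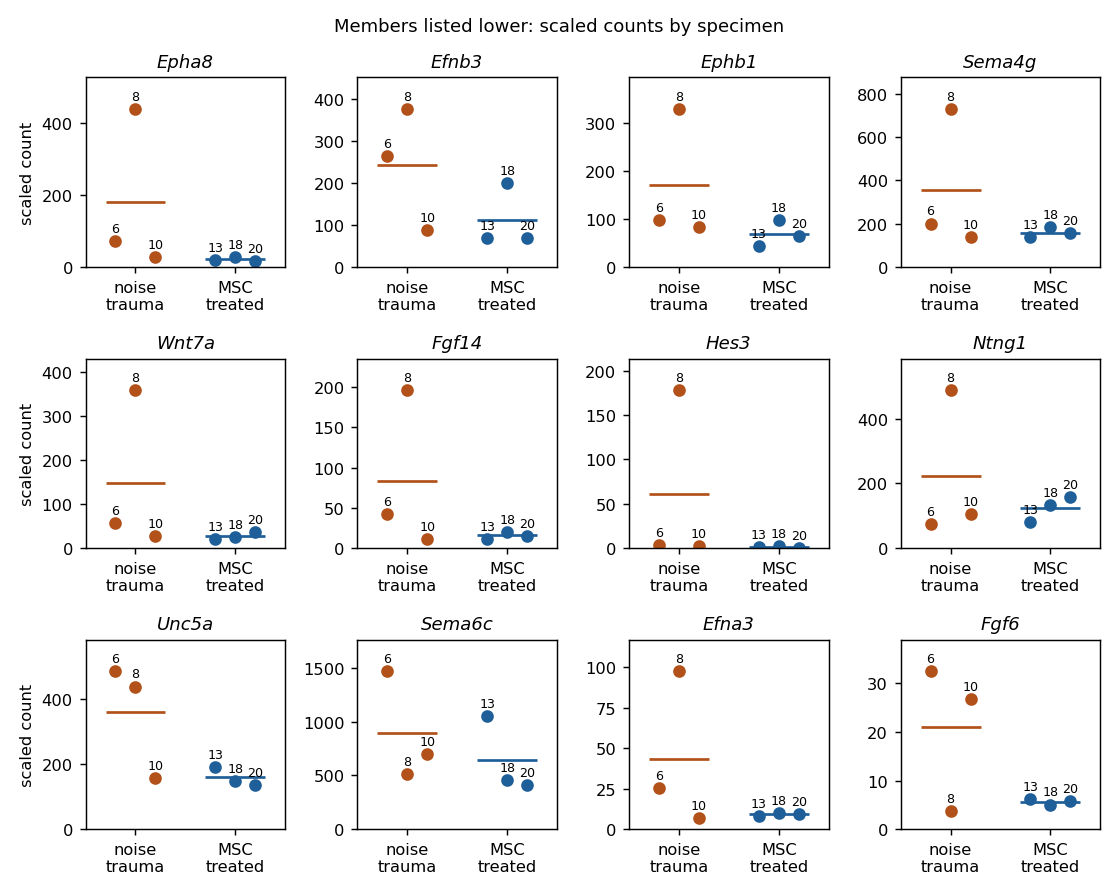
Scaled counts of 12 members listed lower with MSC in each library, with specimen numbers beside the points and a line at the mean of the 3 libraries of each group (linear axes from 0). Epha8, Wnt7a, Fgf14 and Hes3 have 1 high point, specimen 8, at 439, 359, 196 and 178, while Unc5a is high in specimens 6 and 8 and Sema6c and Fgf6 are highest in specimen 6.

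Semaphorins and their receptors were divided between the lists, with 4 members lower and 5 higher. Sema4g, a transmembrane semaphorin, had scaled counts of 200.5, 729 and 139 in specimens 6, 8 and 10 (noise trauma) against 138, 183 and 155 in specimens 13, 18 and 20 (MSC treated). Specimen 8 was far above the rest and specimen 6 just above the MSC treated range, and the difference of -0.79 ± 0.59 was -0.08 without specimen 8. Sema6b, a transmembrane semaphorin of class 6, gave 329, 686 and 364 after noise trauma and 273, 348 and 285 with MSC, and its difference of -0.53 ± 0.29 was -0.20 without specimen 8. Plxna3, a plexin that together with neuropilins receives secreted semaphorins, had 336, 377 and 151 after noise trauma and 154, 144 and 194 with MSC. Specimens 6 and 8 were both high here, and specimen 10 lay among the MSC treated libraries. The difference of -0.71 ± 0.36 was -0.47 without specimen 8 and -0.55 without specimen 6. Without specimen 10, Plxna3 and Sema4g stood at -1.12 and -1.27.

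Sema6c, another class 6 semaphorin, had a different profile, with 1464, 511 and 699 after noise trauma and 1051, 458 and 409 with MSC. Specimen 6 was highest, MSC treated specimen 13 was second, and specimen 8 lay within the MSC treated range. The difference of -0.47 ± 0.50 was -0.04 without specimen 6 and -0.80 without specimen 8, and without MSC treated specimens 13, 18 or 20 it was -0.90, -0.30 or -0.22. The 9 of 10 skeletal muscle markers with a name were all highest in specimen 6 as well, and their scaled counts summed to 887398, 34494 and 203919 in specimens 6, 8 and 10 against 504418, 77202 and 85636 in specimens 13, 18 and 20, which puts specimens 6 and 13 first and second as for Sema6c. Their part in the result was not tested.

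The 5 members listed higher were the secreted ligand Sema3b, the transmembrane ligands Sema4a and Sema5a, the co-receptor Nrp1, which serves class 3 semaphorins and vascular endothelial growth factor, and Plxnd1, a plexin known from endothelial cells. Their differences were small, between 0.24 (Sema4a) and 0.36 (Nrp1), with standard errors between 0.20 and 0.34. Nrp1 was measured at 989, 642 and 1234 in the noise trauma libraries and 1326, 1074 and 1160 in the MSC treated libraries, with specimen 8 lowest, specimen 6 just below the MSC treated range and specimen 10 within it. Without specimen 8 its difference was 0.10. Plxnd1 was measured at 1848, 1516 and 2491 in the noise trauma libraries and 2557, 2135 and 2497 in the MSC treated libraries, so that specimens 6 and 8 were the 2 lowest and specimen 10 was within the MSC treated range, and without specimen 8 its difference was 0.15. Sema5a was lowest in specimen 6 at 461 and highest in specimen 10 at 1089, and without specimen 6 its difference was 0.01. Without MSC treated specimen 13 it was 0.55. Sema4a and Sema3b ranged from 453 to 748 and from 455 to 844 over the 6 libraries. The difference of Sema4a was 0.03 without specimen 6, and that of Sema3b was 0.21 without specimen 8 and 0.19 without MSC treated specimen 20. Without specimen 10, the differences of Nrp1, Plxnd1, Sema4a and Sema5a were 0.57, 0.51, 0.39 and 0.63.

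Slit proteins, secreted repellents that act through Robo receptors, were listed higher, while the netrin-G gene Ntng1 and the netrin receptor Unc5a were listed lower. Slit2 had scaled counts of 502, 626 and 1013 in specimens 6, 8 and 10 (noise trauma) against 845, 1091 and 982 in specimens 13, 18 and 20 (MSC treated). Specimens 6 and 8 were lowest, and specimen 10 was above 2 of the 3 MSC treated libraries. Slit3 had 576, 601 and 914 (noise trauma) against 783, 913 and 772 (MSC treated), again with specimens 6 and 8 lowest and with specimen 10 level with the highest MSC treated library, and the differences were 0.50 ± 0.27 for Slit2 and 0.27 ± 0.20 for Slit3. Without specimen 6 they were 0.28 and 0.15, and that of Slit3 was 0.18 without specimen 8. Without specimen 10 they were 0.79 and 0.48.

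Unc5a, a receptor that turns netrin into a repellent, had 483, 437 and 157 (noise trauma) against 192, 148 and 137 (MSC treated). Specimens 6 and 8 were alike and more than 2 times every MSC treated library, and specimen 10 was within the MSC treated range. The difference of -1.03 ± 0.44 was -0.81 without specimen 8 and -0.73 without specimen 6, so that it rested on neither library alone. Ntng1, a lipid-anchored relative of netrins found at synapses, had 75.3, 488 and 105 (noise trauma) against 82.1, 132 and 159 (MSC treated). Specimen 8 alone was high and specimen 6 was the lowest of the 6 libraries. The difference of -0.39 ± 0.70 turned to 0.42 without specimen 8 and was -0.92 without specimen 6, -0.68 without specimen 10, -0.12 without MSC treated specimen 13 and -0.59 without MSC treated specimen 20.

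Wnt ligands were divided as well. Wnt6 and Wnt2b were listed higher, and Wnt7a, Wnt9b and Wnt10a lower. Wnt6 had scaled counts of 56.8, 54.5 and 76.8 in specimens 6, 8 and 10 (noise trauma) against 95.6, 95 and 100 in specimens 13, 18 and 20 (MSC treated). The MSC treated libraries lay close together, at a mean of 96.8 ± 2.73 (SD, n = 3), above all noise trauma libraries at 62.7 ± 12.3 (SD, n = 3), and Wnt6 was the 1 member of the 45 whose groups were separate in this direction. Its difference of 0.64 ± 0.21 was between 0.54 and 0.79 with any noise trauma library left out. Wnt2b, which acts in the canonical pathway through beta-catenin, was measured at 245, 228 and 528 in the noise trauma libraries and 492, 615 and 437 in the MSC treated libraries. Specimens 6 and 8 were at about the same low level and specimen 10 was within the MSC treated range, and the difference of 0.72 ± 0.34 was 0.50 without specimen 8 and 1.11 without specimen 10.

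Wnt7a, a ligand known for roles in synapse formation and in brain blood vessels, was measured at 57.9, 359 and 28.6 in the noise trauma libraries and 20.8, 25.5 and 36.9 in the MSC treated libraries. Specimen 8 was highest and specimen 6 second, while specimen 10 lay within the MSC treated range. The difference of -1.61 ± 0.89 was -0.58 without specimen 8. Wnt9b and Wnt10a were at the edge of detection. Wnt10a had 24, 18 and 8 reads in specimens 6, 8 and 10 against 7, 4 and 6 reads in specimens 13, 18 and 20, and specimen 10 lay within the MSC treated range once the values were scaled. Wnt9b had 10, 39 and 3 reads against 8, 9 and 1, so that specimen 8 was the highest library. In RefSeq, Wnt6 and Wnt10a are direct neighbours, and these 2 adjacent ligand genes stood in opposite lists. Strand handling in the counting is not given in the sources used here.

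Promoters of Wnt6 and Wnt7a are shown as the Wnt ligands with the clearest separate groups and the largest fitted difference, in lower case throughout because neither of the Tcf and Lef letters CTTTGAT and CTTTGAA was found on either strand. Both are RefSeq windows of 300 bases on GRCm38.p6, for Wnt6 at chr1:74771642-74771941 on the plus strand and for Wnt7a at chr6:91411304-91411603 on the minus strand.
Wnt6 promoter: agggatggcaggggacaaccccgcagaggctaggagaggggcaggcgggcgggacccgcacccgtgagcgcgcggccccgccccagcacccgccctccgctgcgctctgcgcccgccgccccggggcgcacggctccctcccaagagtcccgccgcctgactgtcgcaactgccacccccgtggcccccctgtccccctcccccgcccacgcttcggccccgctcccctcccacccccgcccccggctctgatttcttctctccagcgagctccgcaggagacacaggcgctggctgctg
Wnt7a promoter: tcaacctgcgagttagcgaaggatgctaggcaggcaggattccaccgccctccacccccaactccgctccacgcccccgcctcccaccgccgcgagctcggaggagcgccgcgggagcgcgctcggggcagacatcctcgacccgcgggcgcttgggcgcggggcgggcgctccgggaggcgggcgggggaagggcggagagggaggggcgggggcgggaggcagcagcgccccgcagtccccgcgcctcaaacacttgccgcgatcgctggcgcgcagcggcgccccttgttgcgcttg
CTTTGAT was in 3.73% and CTTTGAA in 5.14% of all promoter windows. Of the 33 members with a window, 1 held the first (Fgf6) and 0 the second.

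The Frizzled receptors Fzd2, Fzd8 and Fzd9, to which Wnt proteins bind, and Sfrp5, a secreted protein that binds Wnt and blocks it, were all listed higher and all lowest in specimen 8. Fzd9 had 406, 217 and 506 (noise trauma) against 538, 587 and 397 (MSC treated). Specimen 8 was the only library far below the others, specimens 6 and 10 lay within the MSC treated range, and the difference of 0.50 ± 0.33 was 0.14 without specimen 8. Fzd2, Fzd8 and Sfrp5 had differences of 0.37 ± 0.26, 0.34 ± 0.20 and 0.46 ± 0.26, which were 0.21, 0.22 and 0.30 without specimen 8. Single MSC treated libraries were high in 2 of them, with 372 for Fzd2 in specimen 13 and 506 for Sfrp5 in specimen 20, and without these the differences were 0.12 and 0.26.

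**Figure D4:**
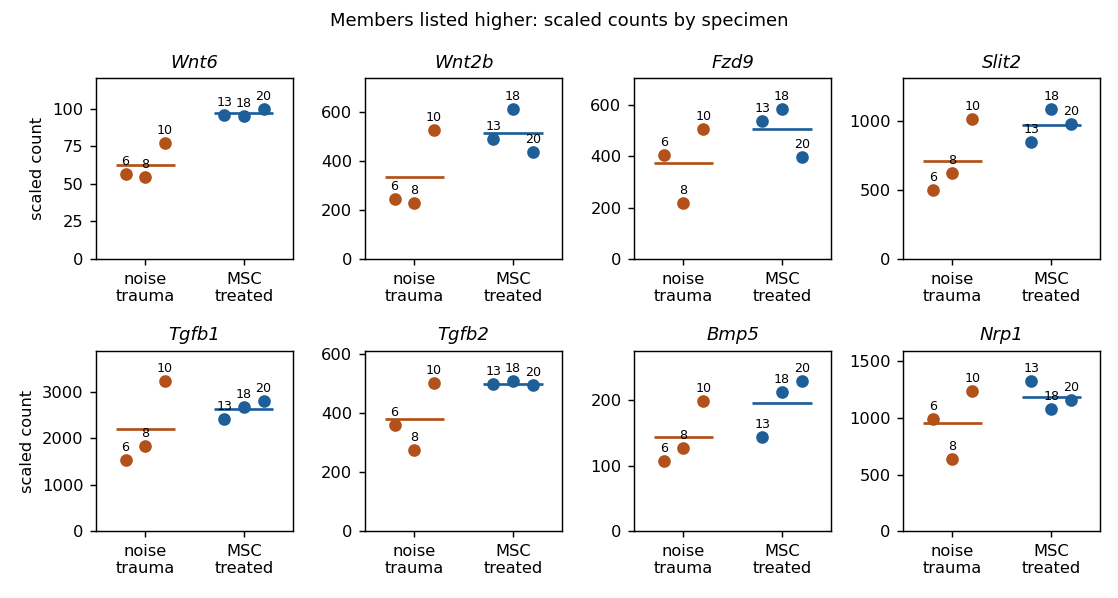
Scaled counts of 8 members listed higher with MSC in each library, with specimen numbers beside the points and a line at the mean of the 3 libraries of each group (linear axes from 0). In Wnt6 the MSC treated libraries lie between 95.0 and 100 and the noise trauma libraries between 54.5 and 76.8, while in the other 7 genes specimen 10 lies within or above the MSC treated range.

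In the BMP and TGF-beta family 6 of 7 members were listed higher. The secreted ligands Bmp5 and Bmp7 had scaled counts of 107, 127 and 199 (noise trauma) against 143, 212 and 229 (MSC treated) for Bmp5 and 253, 238 and 358 (noise trauma) against 339.7, 393 and 326 (MSC treated) for Bmp7. In both, specimens 6 and 8 were the lowest 2 libraries and specimen 10 was within the MSC treated range. The differences were 0.45 ± 0.30 and 0.34 ± 0.19, and that of Bmp5 was 0.26 without specimen 6. Tgfb1, a cytokine known for regulating immune cells and matrix, was measured at 1537, 1831 and 3236 in the noise trauma libraries and 2418, 2671 and 2801 in the MSC treated libraries. Specimen 10 was the highest of all 6 libraries, above every MSC treated one, and the difference of 0.33 ± 0.28 was 0.11 without specimen 6 and 0.65 without specimen 10. Without specimen 10, Bmp5 and Bmp7 stood at 0.71 and 0.52.

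Tgfb2, a second TGF-beta ligand, had 359, 276 and 502 after noise trauma and 497, 509 and 494 with MSC. The 3 MSC treated values spanned only 494 to 509 and specimen 10, at 502, lay among them. The difference of 0.44 ± 0.22 was 0.23 without specimen 8. Tgfbr3, the co-receptor also called betaglycan, and Tgfbi, a matrix protein induced by TGF-beta and not a receptor or ligand, had differences of 0.33 ± 0.18 and 0.27 ± 0.16, which were 0.20 for Tgfbr3 without specimen 8 and 0.15 for Tgfbi without specimen 6, while Tgfbi stood at 0.42 without specimen 10. Bmp1, listed lower, is a metalloprotease that cleaves procollagen and the BMP antagonist chordin. It was highest in specimen 8 at 2344, between 1248 and 1578 in the other 5 libraries, and its difference of -0.24 ± 0.24 was 0.01 without specimen 8 and -0.45 without specimen 6.

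The 3 FGF members were listed lower. Fgf14 and Fgf11 belong to the intracellular FGF homologues, which bind voltage-gated sodium channels and are not secreted. Fgf14 had scaled counts of 42.9, 196 and 11.6 in specimens 6, 8 and 10 (noise trauma) against 11.4, 20.4 and 15.5 in specimens 13, 18 and 20 (MSC treated). Specimen 8 was far above the rest and specimen 6 second, with specimen 10 just within the MSC treated range. Fgf11 gave 195, 275 and 133 (noise trauma) against 149.6, 150.1 and 122 (MSC treated), and the differences were -1.54 ± 0.95 for Fgf14 and -0.46 ± 0.28 for Fgf11, or -0.52 and -0.20 without specimen 8 and -2.50 and -0.72 without specimen 10. Fgf6, a secreted ligand known from skeletal muscle, had 28, 4 and 30 reads in specimens 6, 8 and 10 and 6, 5 and 6 in the MSC treated libraries. It was the 1 member listed lower in which specimen 8 was lowest, and specimens 6 and 10 were both high. The muscle marker sum was also lowest in specimen 8 and was above 2 of the 3 MSC treated libraries in specimen 10, but it was higher in MSC treated specimen 13, which had 6 Fgf6 reads, than in specimen 10, which had 30. Its part in this result was not tested.

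The Notch group held Hes3, Hes5 and Hey1, repressors of the bHLH class of which Hes5 and Hey1 are known Notch targets, all listed lower and all highest in specimen 8. Hes3 had 186 reads in specimen 8 and 3, 3, 1, 2 and 0 reads in specimens 6, 10, 13, 18 and 20. The other 5 libraries were therefore at or under 3 reads, taken as the detection floor, and the separation of the groups rests on counts of that size. Hes5, a Notch target in supporting cells of the developing cochlea, had 8, 25 and 4 reads against 3, 3 and 4. Too few libraries reached the filter's level for a fit, and specimen 10 lay within the MSC treated range. Hey1, a Hes relative, was measured at 213, 320.3 and 144 in the noise trauma libraries and 192, 142 and 123 in the MSC treated libraries, with specimens 6 and 8 highest, and its difference of -0.51 ± 0.33 was -0.22 without specimen 8 and -0.80 without specimen 10.

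The Hes5 promoter is shown because Hes5 is a direct target of the Notch effector Rbpj, at chr4:154960673-154960972 on the plus strand of GRCm38.p6 in RefSeq, with capitals at the Rbpj core TGGGAA or its reverse complement.
Hes5 promoter: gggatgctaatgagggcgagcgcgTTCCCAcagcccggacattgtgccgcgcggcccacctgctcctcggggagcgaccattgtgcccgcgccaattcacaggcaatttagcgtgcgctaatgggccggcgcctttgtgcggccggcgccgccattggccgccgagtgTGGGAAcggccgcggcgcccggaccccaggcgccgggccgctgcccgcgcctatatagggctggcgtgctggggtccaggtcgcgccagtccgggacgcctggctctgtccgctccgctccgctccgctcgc
The core was found at 2 places, starting 226 bases before the start on the opposite strand and 82 bases before it on the same strand. TGGGAA was in 25.6% of all promoter windows and in 7 of the 33 members with a window (Hes5, Efna3, Epha4, Fgf11, Bmp5, Sema4a and Sema5a), 4 of them listed lower and 3 higher. It is a short and frequent run of letters, and no binding was measured.

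Hedgehog signalling was represented by its receptor Ptch1, which is itself raised when the pathway is active, and the rule also took the patched-domain genes Ptchd1 and Ptchd2, which are not Hedgehog receptors by name. These 3 were listed lower. Ptch1 had scaled counts of 635, 1136 and 587 in specimens 6, 8 and 10 (noise trauma) against 579.7, 588 and 599 in specimens 13, 18 and 20 (MSC treated). The 3 MSC treated libraries and specimen 10 lay within 579.7 and 599, so the difference of -0.35 ± 0.26 was carried by specimen 8 and was -0.05 without it, and -0.53 without specimen 10.

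Ptchd1, whose loss is known from intellectual disability, had 17.4, 79.4 and 5.36 (noise trauma) against 19.7, 8.17 and 15.5 (MSC treated). Specimen 8 was the one high library and specimen 10 the lowest of all 6. The difference of -0.53 ± 0.92 turned to 0.44 without specimen 8 and was -1.39 without specimen 10 and -0.19 without MSC treated specimen 18. Ptchd2, now named Disp3, had 73, 149 and 33.9 (noise trauma) against 18.7, 49 and 88.3 (MSC treated), and MSC treated specimen 20 was second to specimen 8. The difference of -0.71 ± 0.72 was -0.19 without specimen 8, -1.24 without specimen 10, -0.13 without MSC treated specimen 13 and -1.22 without MSC treated specimen 20. The Gli letters TGGGTGGTC and the Smad letters GTCTAGAC were in 0 of the 33 member windows and in 0.253% and 0.213% of all windows.

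Across pathways, members listed lower were split by their highest library, so a high value there is part of the split. This gave 2 sets. The first held the 21 members highest in specimen 8, in which specimen 8 was between 1.66 (Bmp1) and 20.9 (Epha8) times the MSC treated mean in the 20 members other than Hes3, whose MSC treated libraries were under the floor, with a median of 3.67 times, while over all 21 members specimen 6 had a median of 1.40 times and specimen 10 of 0.946 times. The second held 5 members, among them Unc5a, Sema6c, Wnt10a and Fgf6. In these, specimen 6 had a median of 3.04 times the MSC treated mean and reached 5.67 times in Fgf6. The 2 sets were not sharply apart. In 17 members listed lower, specimens 6 and 8 both lay above every MSC treated library. Unc5a, with 483 and 437 in specimens 6 and 8, and Plxna3, with 336 and 377, fell in different sets. Members listed higher spanned a narrower range, with specimen 6 between 0.475 and 0.88 times and specimen 8 between 0.428 and 0.919 times the MSC treated mean.

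**Figure D5:**
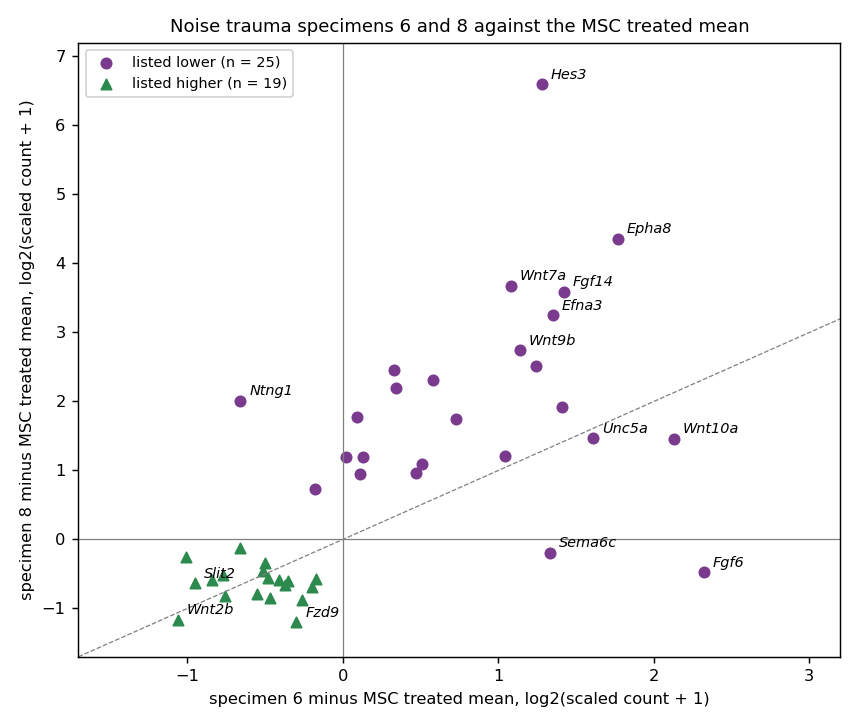
Each member's log2 difference from the MSC treated mean in noise trauma specimen 6 (horizontal axis) and specimen 8 (vertical axis), on log2(scaled count + 1), with circles for 25 of the 26 members listed lower and triangles for the 19 listed higher and a dashed line of equal difference. The triangles lie below 0 on both axes, most circles lie above the line, and Fgf6, Sema6c, Wnt10a and Unc5a lie below it.

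Markers of other tissues near the cochlea were named only through the study's lists too, and all those given here were listed lower, so that their direction was set by the same selection as that of the members. All 11 cerebellar granule cell markers were named and all were highest in specimen 8, with summed scaled counts of 4369, 26118 and 1652 in specimens 6, 8 and 10 against 1787, 2347 and 1564 in specimens 13, 18 and 20. Of these, Barhl2 was at 0 in some libraries, with values of 23.2, 294 and 0 (noise trauma) against 2.08, 0 and 0.971 (MSC treated). The 5 of 6 Purkinje cell markers with a name summed to 2435, 15121 and 2221 against 2185, 2688 and 2159, and the 5 of 6 markers of central myelin to 23319, 32435 and 10068 against 9185, 22923 and 11797. Markers of the choroid plexus, 6 of 7 named, were high in both specimens 6 and 8, at 8203, 5537 and 363 against 330.4, 424 and 311, with specimen 6 first and specimen 8 second as for Unc5a and Wnt10a. The sums of specimens 6 and 8 were mostly Ttr, at 7414 and 4927. Of the 6 markers, 4 were highest in specimen 6 and 2 in specimen 8. The part of all these tissue markers in the results of the members was not tested.

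Markers of the cochlea, its connective tissue and macrophages had a name only where the study listed them, and those named here were all listed higher, so their direction was set by the same selection as that of the members listed higher. The hair cell sums given above were lowest in specimens 6 and 8, but they are mostly Otof. Lhfpl5 alone had 27.8 in specimen 6 against 19.7 in specimen 10 and 27.0 in MSC treated specimen 13. Otog and Otoa, genes of the acellular matrices, summed to 1421, 1584 and 3612 after noise trauma and 2423, 3062 and 2605 with MSC. The 4 of 6 fibroblast markers summed to 58024, 67770.2 and 111423 against 72607, 92077 and 99732, and the 2 of 6 macrophage markers (Cd68 and Adgre1) to 1059, 1044 and 1982 against 1705, 1672 and 1823. Of the peripheral myelin markers 1 of 4 was named (Egr2), at 89.2, 95.6 and 225 against 136, 193 and 337. In each of these 5 sums specimens 6 and 8 were the lowest 2 libraries. Single markers could differ, as Lhfpl5 did and as Dcn of the fibroblast markers did, with 4169 in specimen 6 and 4129 in MSC treated specimen 18. The part of these markers in the results of the members was likewise not tested.

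Other genes of the same pathways were taken from lists of 164 partners outside the rule. The study's lists named 54 of them, 35 lower and 19 higher, and of the 53 tested limma gave 0 with an adjusted p under 0.05 (0% of all genes) and 3 had an unadjusted p under 0.05, beside 2.35% of all genes. By pathway, 12 of the 15 named axon guidance partners were listed lower, 10 of 14 for Wnt, 5 of 10 for BMP and TGF-beta, 4 of 7 for FGF, 4 of 5 for Notch and 0 of 3 for Hedgehog. Of the 54, 29 were highest in specimen 8 and 5 in specimen 6, beside 28.2% and 21.1% of all genes tested. Being named required the same selection, so these counts are not independent of it.

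Among the axon guidance partners, Rtn4r, the Nogo receptor, had 68.4, 368 and 42.9 (noise trauma) against 37.4, 36.8 and 49.5 (MSC treated), and Crmp1, a mediator of semaphorin signals, had 363, 1173 and 79.5 (noise trauma) against 124, 210.4 and 207 (MSC treated). Both were highest in specimen 8 with specimen 6 second, as for Epha8 and Efna3, and without specimen 8 their differences were -0.40 and 0.04. The named Hedgehog partners stood in the opposite list from Ptch1. Ihh, a Hedgehog ligand, had 10.4, 12.4 and 38.4 (noise trauma) against 33.2, 29.6 and 43.7 (MSC treated), Smo, the signal transducer, ranged from 425 to 653, and Gas1, a co-receptor, from 707 to 1149.8. In these 3 genes the lowest library was specimen 6 or 8, and Ihh was level between specimen 10 and the MSC treated libraries.

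In 10 of the 53 partners tested the groups did not overlap, beside 7.16% of all genes tested, with MSC above in 4 (4.25% of all genes) and below in 6 (2.92%). The partners were named through lists made from this comparison, so nothing is read from these counts. Wls, which carries Wnt proteins to the cell surface, had 695, 753 and 974 (noise trauma) against 1006, 1063 and 1008 (MSC treated), and Lgr5, a receptor that amplifies Wnt and marks supporting cells able to divide, had 82.3, 141 and 166 (noise trauma) against 216, 172 and 192 (MSC treated). Both were listed higher, like Wnt6, with differences of 0.36 ± 0.15 and 0.63 ± 0.29, and that of Lgr5 was 0.33 without specimen 6. The other 2 above were Inhba, which encodes an activin subunit, and Adam17, a protease that can cleave Notch. The 6 below were Gsk3a, a kinase that restrains Wnt signalling, Prickle1, Gdf11, Spry2, Rfng and Psen2, and among them Gsk3a had 1796, 1909 and 1738 (noise trauma) against 1507, 1484 and 1507 (MSC treated), a narrow separation with a difference of -0.27 ± 0.11 that was -0.24 without specimen 8. Gdf6, a BMP-like ligand, had the largest difference among the partners listed higher, 1.31 ± 0.47, with 26.7, 25.8 and 80.4 (noise trauma) against 95.6, 117 and 79.6 (MSC treated), and specimen 10 lay within the MSC treated range.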

How the data were processed

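The authors trimmed and aligned reads with the AIR software to the C57BL/6NJ genome and deposited TMM-scaled counts (a signal of normalised counts per gene) for 41096 genes. The counting tool and its use of strand are not given in the sources used here. The methods state more animals per group than the 3 libraries analysed. The authors' gene lists also hold fold changes, FDR and mean FPKM, which were not used; only identifiers and symbols were taken, and these name 3716 of 3878 listed genes.

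Every scaled count above 0 was a whole multiple of 1 step per library (100% within 0.001 reads), so reads were recovered. The main test was limma-trend (limma 3.58.1) on log2(scaled count + 1) over the 15970 genes kept by filterByExpr in edgeR 4.0.16, two-sided, with Benjamini-Hochberg adjustment. Alternatives were other scalings, filters and pseudocounts, each library left out, and edgeR's quasi-likelihood test, DESeq2 1.42.0 and limma-voom on recovered reads. The steps were tested on simulated data. A floor of 3 reads covers counting error only. The SE from limma uses a variance drawn toward that of other genes, so it is not the spread of a gene's own values alone. SE and p rest on these specimens only. R 4.3.3, Python 3.11.15 and pandas 2.3.3 were used.

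The members and lists were chosen with earlier results of these data known. Every member but 1, which is not reported here and stands only in the counts, is named, and values in all 6 libraries are given in each of 8 pathway groups for the 4 tested members with the largest fitted differences and for those whose groups do not overlap; other genes and values were chosen after they were seen. Promoters came from RefSeq (GRCm38.p6), which held a window for 33 of the 45 members. Gene order came from RefSeq on the same build, with no coordinates because the files' build differs.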

Additional observations from a re-analysis of the deposited data

How the results depend on the processing

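The count of genes called at an adjusted p under 0.05 was 0 with all libraries and ranged from 0 to 1 with each library left out, the 1 call arising without noise trauma specimen 10. The count of members called was 0 under every alternative run. The median difference of members listed lower ranged from -1.24 to -0.34 with each library left out and from -0.85 to -0.60 under other scalings, filters, pseudocounts and tools, and that of members listed higher from 0.23 to 0.57 and from 0.32 to 0.41. Of the 27 tested members given in full, 2 (Ptchd1 and Ntng1) changed sign without specimen 8, and 0 changed sign under the other scalings, filters, pseudocounts and tools or without another library. Their size moved by more than 1.5 times in 4 of the 27 with edgeR (Efna3 -2.19, Fgf14 -2.39, Ptchd1 -1.23 and Ntng1 -0.84) and in 5 with DESeq2 (Efna3 -2.22, Fgf14 -2.41, Ptchd1 -1.24, Ntng1 -0.85 and Wnt7a -2.43), and in 0 under other scalings, filters and pseudocounts or limma-voom. Members near the floor of 3 reads (Hes3, Hes5 and Wnt9b) have values limited by depth. No paired analysis was possible because the groups share no specimen number.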
